A study of Mus musculus with 78 samples.

Results

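Natural killer (NK) cell and cytotoxic transcripts were followed in the mouse lung through 9 genes, namely the surface receptors Klrb1c, Ncr1, Klre1 and Klrg1, the cytotoxic granule genes Gzma, Gzmb, Prf1 and Nkg7, and the transcription factor gene Eomes. Each gene was represented by the probe set that the array annotation assigns to its symbol alone and that had the highest mean over all arrays. All 9 genes were found, each with 1 such probe set, among 18820 genes with a single symbol and 35556 probe sets in all. Each of 78 mice gave the lung RNA for its own array (Affymetrix Mouse Gene 1.0 ST). In 35 mice, sleep was prevented by gentle handling from lights on for 3, 6, 9 or 12 h (9, 9, 9 and 8 mice), and 34 mice were left undisturbed and euthanized at the same hours (9, 7, 9 and 9 mice). A further 9 baseline mice were euthanized at lights on. All were young adult male C57BL/6J mice of unmodified genotype that had food only in the dark phase and had been accustomed to the experimenter before the experiment. Handling and wakefulness were applied together, so a response to either cannot be told apart. Values are log2 intensities, on which a difference of 1 is a factor of 2.

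NK cells are lymphocytes of the innate immune system that kill infected, stressed or transformed cells without prior immunization. Activating and inhibitory receptors decide whether an NK cell attacks, and killing proceeds by release of granules in which perforin opens the target membrane and granzymes trigger cell death. The lung holds many NK cells, a large part of them within its blood vessels. Klrb1c encodes NK1.1, the antigen used to identify NK cells in this strain, and Ncr1 encodes NKp46, an activating receptor largely restricted to NK cells and related innate lymphoid cells. Klre1 encodes a lectin-like receptor of NK cells, and Klrg1 an inhibitory receptor of mature NK cells and effector T cells that binds cadherins. Gzma and Gzmb encode granzymes A and B, Prf1 perforin, and Nkg7 a membrane protein of cytotoxic granules. Eomes is a T-box factor needed for NK cell maturation. The granule genes and Eomes are also used by cytotoxic T cells, so these transcripts are not exclusive to NK cells.

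In the RefSeq annotation of mouse build GRCm38.p6, Klrb1c, Klre1 and Klrg1 lie on chromosome 6, Ncr1 and Nkg7 on chromosome 7, Gzma on 13, Gzmb on 14, Prf1 on 10 and Eomes on 9. Klrb1c spans chr6:128778485-128788641 and Ncr1 spans chr7:4337715-4345184. Klre1 spans chr6:129559365-129585828, Klrg1 chr6:122270596-122282833, Gzma chr13:113093824-113100981, Gzmb chr14:56258836-56262334, Prf1 chr10:61297751-61304684, Nkg7 chr7:43437138-43438246 and Eomes chr9:118478186-118486132. Which exons the probes cover was not analysed here. Klrb1c has 1 further probe set and Prf1 has 3 that the annotation shares with other genes, and these were not used. The Klr genes have close relatives in the genome, and how far their probes also bind related transcripts is not known from these values. Because most of these genes moved together and Runx3 and T-box factors are known to act on them, the promoter windows of 4 genes are shown, each reaching 250 bases before and 50 bases after the start in RefSeq on the gene's own strand. Capitals mark matches, on either strand, to a RUNX motif spelled TGTGGT, an ETS motif spelled GGAAGT and a T-box motif spelled GGTGTGA. Klrb1c is on the minus strand at chr6:128788592-128788891, Ncr1 on the plus strand at chr7:4337465-4337764, Gzmb on the minus strand at chr14:56262285-56262584 and Nkg7 on the plus strand at chr7:43436888-43437187.
Klrb1c: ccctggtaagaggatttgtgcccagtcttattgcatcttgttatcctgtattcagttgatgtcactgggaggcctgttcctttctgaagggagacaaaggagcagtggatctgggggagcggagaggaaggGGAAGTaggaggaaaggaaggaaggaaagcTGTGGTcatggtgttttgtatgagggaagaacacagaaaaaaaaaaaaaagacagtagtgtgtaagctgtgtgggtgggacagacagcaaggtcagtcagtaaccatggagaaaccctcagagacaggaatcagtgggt
Ncr1: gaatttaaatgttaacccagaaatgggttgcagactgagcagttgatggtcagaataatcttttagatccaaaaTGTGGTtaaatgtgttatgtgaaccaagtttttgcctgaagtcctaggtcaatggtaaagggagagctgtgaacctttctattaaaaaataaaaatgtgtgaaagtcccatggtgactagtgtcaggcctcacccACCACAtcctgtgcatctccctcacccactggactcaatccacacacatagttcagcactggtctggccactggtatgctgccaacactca
Gzmb: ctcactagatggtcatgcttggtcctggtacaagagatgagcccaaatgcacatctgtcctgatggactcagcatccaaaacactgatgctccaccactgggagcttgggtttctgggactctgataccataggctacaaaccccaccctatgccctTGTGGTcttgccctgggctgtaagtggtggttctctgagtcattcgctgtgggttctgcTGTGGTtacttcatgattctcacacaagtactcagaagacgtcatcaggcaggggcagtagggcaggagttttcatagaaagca
Nkg7: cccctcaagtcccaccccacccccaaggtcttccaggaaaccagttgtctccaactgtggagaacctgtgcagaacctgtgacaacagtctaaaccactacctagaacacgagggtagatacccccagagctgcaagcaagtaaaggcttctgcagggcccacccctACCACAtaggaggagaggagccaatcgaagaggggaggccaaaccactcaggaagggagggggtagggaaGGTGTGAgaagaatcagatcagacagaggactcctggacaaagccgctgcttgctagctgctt
Windows were given for 8 members and not for Klrg1. The RUNX letters occurred in a window of 7 of these 8 genes, in Klrb1c, Ncr1, Gzma, Gzmb, Prf1, Nkg7 and Klre1 but not in Eomes, against 16.8% of 32851 promoter windows of the same length. The ETS letters occurred in Klrb1c and Prf1 (23.8% of all windows) and the T-box letters in Nkg7 (3.98% of all windows). A gene was counted if any of its windows matched, and Ncr1 and Klre1 have 2 windows each. Only 1 of the Klre1 windows had the RUNX letters. The shares count single windows, so genes and shares are not in the same unit. No match overlapped a match of another motif in these windows, and a match is a description of the sequence and no evidence of binding.

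The tissue label was checked against lung epithelium. Sftpc and Sftpb, surfactant proteins of alveolar cells, averaged 13.25 and 12.60 over all arrays, near the highest value of 13.85 in the data. On the same arrays the members averaged between 5.34 and 8.39, except Klre1, which averaged 3.54 with only 6.0% of probe sets dimmer. A small change of Klre1 would therefore be hard to see. Some arrays resembled another group than their label. The labels form blocks along the array numbers, and only array 81, labelled as 12 h of sleep deprivation, has a number outside its block. An order of conditions laid out here, which the labels do not give, places many block edges differently. In that order 15 arrays, each the first or last of its labelled block, fell on the condition of the neighbouring block. Array 81 had no place in it. A comparison over 200 probe sets left each array out in turn. In it, 15 of these 15 arrays resembled most the group given by the order laid out here. Array 81 resembled most the mice that had slept for 6 h, and 60 of the other 62 arrays resembled most their own group. Because the order was laid out here, this match is no independent check of the labels. It shows only that the 15 arrays resembled another group than their label. Array 80, labelled as 6 h of sleep, also had no place in the order, resembled most its own group and was kept among the other 62. Labels were used as given, and results that rest on the 16 arrays, the 15 and array 81, are given with and without them. Of the 15, 5 resembled a group of the other state, so leaving them out can by itself widen differences between the states. The labels' array numbers also fall into 4 runs in which the order of conditions starts anew. Runs 1 and 2 hold the 9 h and 12 h groups, runs 3 and 4 the 3 h and 6 h groups, and all 9 baseline mice are in run 3. No source says whether the laboratory handled the arrays in such runs.

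Members of all 3 kinds were lower in sleep-deprived than in sleeping mice when the hours were pooled. Of the 9 members, 5 fell (Klrb1c, Ncr1, Prf1, Nkg7 and Eomes, adjusted p under 0.01 from limma) and none rose, where 2.89% of all 35556 probe sets fell. All 9 differences were below 0, with a median of -0.36, against a median of 0.01 and 47.2% below 0 over all probe sets. Because this is bulk lung RNA, fewer NK cells and less of these RNAs per cell cannot be told apart.

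The largest difference among the members was that of Ncr1, the NKp46 receptor. Its log2 intensity ran from 5.63 to 7.74 with a median of 6.28 in sleep-deprived mice, against 6.03 to 8.06 with a median of 7.09 in sleeping mice. The ranges overlapped widely, but 31 of 35 sleep-deprived mice lay below the median of the sleeping mice. Ncr1 averaged 6.50 ± 0.50 (SD, n = 35) in sleep-deprived mice and 7.10 ± 0.50 (SD, n = 34) in sleeping mice, a fall by 0.60 (SE 0.12, limma adjusted p = 0.000213). Klrb1c, the NK1.1 antigen, had a lowest, median and highest value of 5.09, 5.54 and 6.29 in sleep-deprived mice, against 4.96, 5.92 and 6.56 in sleeping mice. Of the sleeping mice, 5 lay above every sleep-deprived mouse, and 31 of 35 sleep-deprived mice lay below the sleeping median. Klrb1c fell by 0.37 (SE 0.07, limma adjusted p = 0.000135).

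Among the granule genes, Nkg7 and Prf1 passed the threshold and both granzymes missed it. Nkg7 ranged from 7.40 to 9.38 with a median of 8.12 in sleep-deprived mice, against 7.64 to 9.31 with a median of 8.65 in sleeping mice, a difference of -0.46 (SE 0.10, limma adjusted p = 0.0013). Prf1, perforin, ranged from 5.35 to 7.39 with a median of 6.05 in sleep-deprived mice, against 5.46 to 7.27 with a median of 6.55 in sleeping mice, a difference of -0.40 (SE 0.10, limma adjusted p = 0.00358). In both genes the highest sleep-deprived mouse stood above every sleeping mouse, and it was the same mouse, on array 43. Gzma ranged from 6.97 to 8.98 with a median of 7.70 in sleep-deprived mice, against 7.08 to 9.04 with a median of 8.17 in sleeping mice, a difference of -0.36 (SE 0.11, limma adjusted p = 0.0241). Gzmb ranged from 5.95 to 7.94 with a median of 6.45 in sleep-deprived mice, against 6.09 to 7.56 with a median of 6.86 in sleeping mice, a difference of -0.32 (SE 0.09, limma adjusted p = 0.0133). Of the sleep-deprived mice, 28 of 35 for Gzma and 30 of 35 for Gzmb lay below the sleeping median. Without the 16 arrays both granzymes passed as well, with -0.45 for Gzma (limma adjusted p = 0.00568) and -0.37 for Gzmb (limma adjusted p = 0.00607), and 7 of 9 members then fell, where 3.97% of all probe sets fell.

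Eomes, the T-box factor, was below the median of the sleeping mice in 33 of 35 sleep-deprived mice, the highest such count among the members. It ranged from 4.84 to 5.99 with a median of 5.29 in sleep-deprived mice, against 4.59 to 6.40 with a median of 5.65 in sleeping mice, and fell by 0.36 (SE 0.07, limma adjusted p = 0.000277). The lowest Eomes value among sleeping mice, 4.59, belonged to a 9 h mouse on array 28, 1 of the 16 arrays, and without these arrays the sleeping mice began at 5.31 and the difference was -0.49. Klrg1 and Klre1 did not pass. Klrg1, the inhibitory cadherin receptor, averaged 5.28 ± 0.39 (SD) in the 35 sleep-deprived and 5.41 ± 0.24 (SD) in the 34 sleeping mice, and the difference of -0.13 had a 95% confidence interval from -0.28 to 0.03. Klre1 averaged 3.51 ± 0.13 (SD) in sleep-deprived and 3.58 ± 0.15 (SD) in sleeping mice, and its difference of -0.06 had an interval from -0.13 to 0.01.

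**Figure D1:**
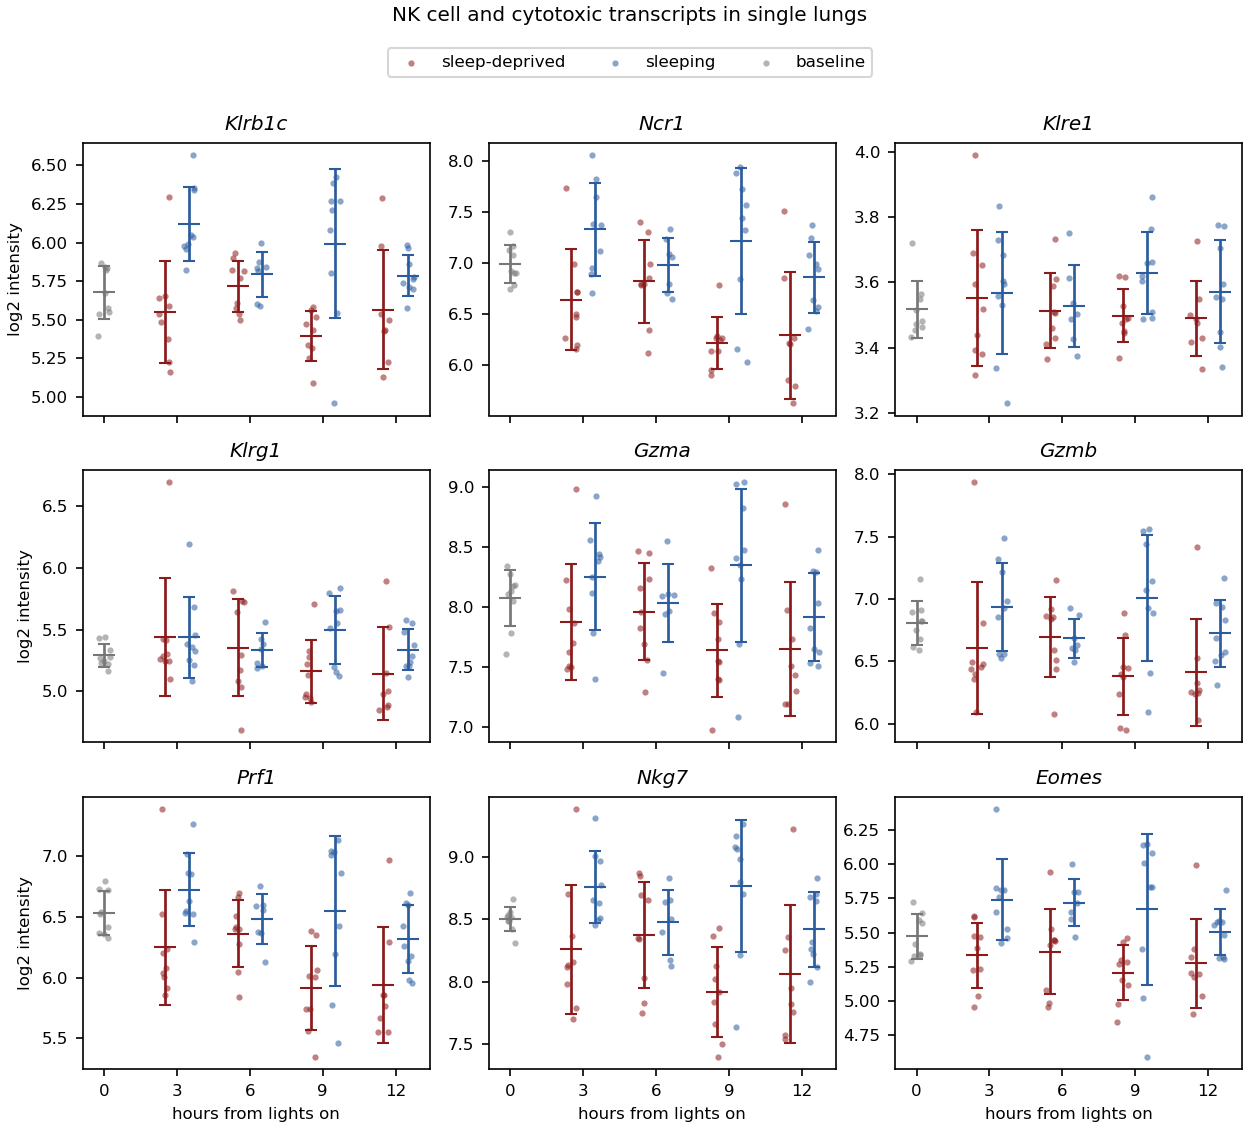
Log2 intensity (vertical axes) of the 9 members, plotted by time since lights on in hours (horizontal axes), dark red for sleep-deprived, blue for sleeping and grey for baseline mice. Each point is a mouse, bars give group means with their SD over 7 to 9 mice, and at 9 h the 9 sleep-deprived mice lie below the sleeping median for Klrb1c, Ncr1, Gzma, Gzmb, Prf1, Nkg7 and Eomes.

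By hour, the median difference of the 9 members between sleep-deprived and sleeping mice was -0.41 after 3 h, -0.08 after 6 h, -0.63 after 9 h and -0.27 after 12 h. After 9 h, 3 of the 9 members fell (Klrb1c, Ncr1 and Nkg7), where 1.41% of all probe sets fell, and 8 members against 12% of all probe sets were lower at an unadjusted p under 0.05. Ncr1 ranged from 5.90 to 6.78 with a median of 6.25 in the 9 sleep-deprived mice, against 6.03 to 7.94 with a median of 7.44 in the 9 sleeping mice. Of the sleeping mice, 7 lay above every sleep-deprived mouse and the other 2 lay among them, and Ncr1 fell by 1.0 (SE 0.21, limma adjusted p = 0.00216). Nkg7 ranged from 7.40 to 8.43 with a median of 7.91 in sleep-deprived mice, against 7.64 to 9.26 with a median of 8.98 in sleeping mice, and fell by 0.85 (SE 0.18, limma adjusted p = 0.0028). Klrb1c ranged from 5.09 to 5.59 with a median of 5.43 in sleep-deprived mice, against 4.96 to 6.43 with a median of 6.21 in sleeping mice, and fell by 0.60 (SE 0.13, limma adjusted p = 0.00244).

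At 9 h the sleeping mice on arrays 10 and 28 were the 2 lowest of their group in 8 members, with Klrg1 the exception. The mice on arrays 10 and 28 had Ncr1 values of 6.03 and 6.16, and the other 7 had values from 6.85 to 7.94. Both arrays are among the 16, are the first of their labelled blocks and resembled most the mice deprived for 12 h. Leaving out these lowest sleeping mice by itself widens the difference at 9 h. Without the 16 arrays, 7 members fell at 9 h, where 2.64% of all probe sets then fell, with Ncr1 at -1.31, Nkg7 at -1.06, Gzma at -0.95, Prf1 at -0.88, Klrb1c at -0.82, Gzmb at -0.79 and Eomes at -0.68. With all arrays, the differences of the 4 members that joined them were -0.71 for Gzma, -0.64 for Prf1, -0.63 for Gzmb and -0.47 for Eomes, with adjusted p from 0.013 to 0.0239 from limma. The count at 9 h moved with single mice. It was 7 without array 10, 6 without array 28, 5 without array 22, array 43 or array 81, and 1 without the sleeping mouse on array 29, where Ncr1 (limma adjusted p = 0.0101) and Nkg7 (limma adjusted p = 0.0105) fell just short.

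After 3 h, only Klrb1c fell among the 9 members, where 2.35% of all probe sets fell, and 5 members against 10.9% of all probe sets were lower at an unadjusted p under 0.05. Klrb1c ranged from 5.16 to 6.29 with a median of 5.54 in sleep-deprived mice, against 5.82 to 6.56 with a median of 6.04 in sleeping mice. In 8 of the 9 sleep-deprived mice Klrb1c was below every sleeping mouse, and the exception was the mouse on array 43. Klrb1c was lower by 0.57 in sleep-deprived than in sleeping mice (SE 0.13, limma adjusted p = 0.00119). Against baseline it differed by -0.13 in sleep-deprived and by 0.44 in sleeping mice, and neither difference passed. Ncr1 ranged from 6.16 to 7.74 with a median of 6.50 in sleep-deprived mice, against 6.71 to 8.06 with a median of 7.38 in sleeping mice, a difference of -0.69 (SE 0.21, limma adjusted p = 0.0182), and passed without array 43 (-0.83, limma adjusted p = 0.00473). Without the sleeping mouse on array 60 the count was also 2. The mouse on array 43 had the highest value of its group in 8 members, with 7.94 for Gzmb and 7.39 for Prf1, where the other 8 mice reached at most 6.81 and 6.53. Its mean level over the members stood 0.86 above the mean of all mice, whereas its T cell, B cell and monocyte marker lists stood at -0.18, -0.38 and 0.03. Eomes, at 5.61, lay within the range of the other mice. Klre1 and Klrg1 differed between the states by -0.015 and 0.003 at 3 h.

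After 6 h, none of the 9 members passed, where 0.0366% of all probe sets fell, and only Eomes, against 4.34% of all probe sets, was lower at an unadjusted p under 0.05. Eomes ranged from 4.96 to 5.95 with a median of 5.44 in sleep-deprived mice, against 5.47 to 6.00 with a median of 5.72 in the 7 sleeping mice. In 7 of the 9 sleep-deprived mice it was below every sleeping mouse, and the difference was -0.36 (SE 0.15, limma adjusted p = 0.29), or -0.48 without the 16 arrays, where it passed (limma adjusted p = 0.00981). The other 8 members differed by between -0.16 and 0.02, and for Klrb1c the interval ran from -0.35 to 0.19. After 12 h, none of the 9 members passed either, where 0.0534% of all probe sets fell, although all 9 differences were below 0, and 2 members against 4.82% of all probe sets were lower at an unadjusted p under 0.05. Ncr1 ranged from 5.63 to 7.51 with a median of 6.21 in sleep-deprived mice, against 6.35 to 7.38 with a median of 6.95 in sleeping mice, and differed by -0.57 (SE 0.21, limma adjusted p = 0.385). In 6 of the 8 sleep-deprived mice it was below every sleeping mouse, whereas the mouse on array 81 had the highest value of both groups. That array, which lay outside the order of conditions, also had the highest value of its group in the other 8 members. Its liver transcripts stood 3.01 above the mean of all mice. They were higher still in sleeping mice, at 5.21 and 4.32 on arrays 79 and 80 (6 h) and 4.04 on array 60 (3 h). With liver transcripts as a covariate, Ncr1 differed by -0.59 at 12 h (limma adjusted p = 0.354). Without array 81 Ncr1 differed by -0.74 (limma adjusted p = 0.094).

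A change of the difference itself across the hours was tested by an F test in limma. None of the 9 members passed, where 0.0562% of all probe sets did, and only Klrb1c, against 16.8% of all probe sets, had an unadjusted p under 0.05 (limma adjusted p = 0.165). The differences at the 4 hours are therefore not shown to differ from each other.

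**Figure D2:**
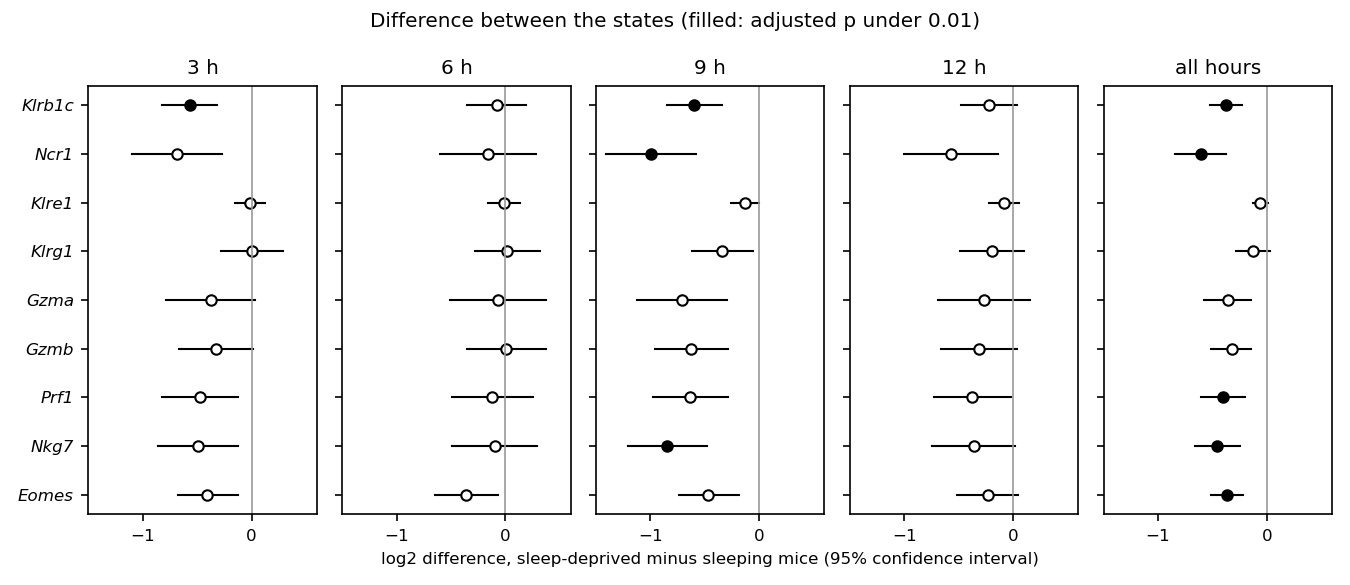
Log2 difference of each member, sleep-deprived minus sleeping mice (horizontal axes), at 3, 6, 9 and 12 h and over all hours, with 95% confidence intervals from limma. Filled circles passed an adjusted p of 0.01, which Klrb1c did at 3 h, Klrb1c, Ncr1 and Nkg7 at 9 h, and 5 members over all hours.

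Within the runs of array numbers, the members were lower in sleep-deprived mice in runs 1, 2 and 4 but hardly in run 3. The median difference of the 9 members was -0.32 in run 1 (9 sleep-deprived and 10 sleeping mice), -0.53 in run 2 (8 of each), -0.03 in run 3 (10 of each) and -0.57 in run 4 (8 sleep-deprived and 6 sleeping mice). In run 4, Ncr1 averaged 6.47 in sleep-deprived and 7.43 in sleeping mice. In run 3, also with mice of 3 h and 6 h, it averaged 6.95 in sleep-deprived and 7.03 in sleeping mice. The sleeping mice of run 4 were 4 of 3 h and 2 of 6 h, and those of run 3 were 5 of each. State and hour are therefore partly mixed in the difference of run 4. Klrb1c and Eomes kept the clearest differences in run 3, with -0.24 and -0.23. Gzma, Gzmb, Prf1 and Nkg7 differed in run 3 by between -0.05 and 0.02, and Klrg1 by 0.15. Without array 43, which is in run 3, the median of that run was -0.12, and without the 16 arrays it was -0.02. With the 4 runs as a block, the same 5 members fell over all hours, where 3.81% of all probe sets then fell, with Ncr1 at -0.62 (limma adjusted p = 7.49e-05).

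**Figure D3:**
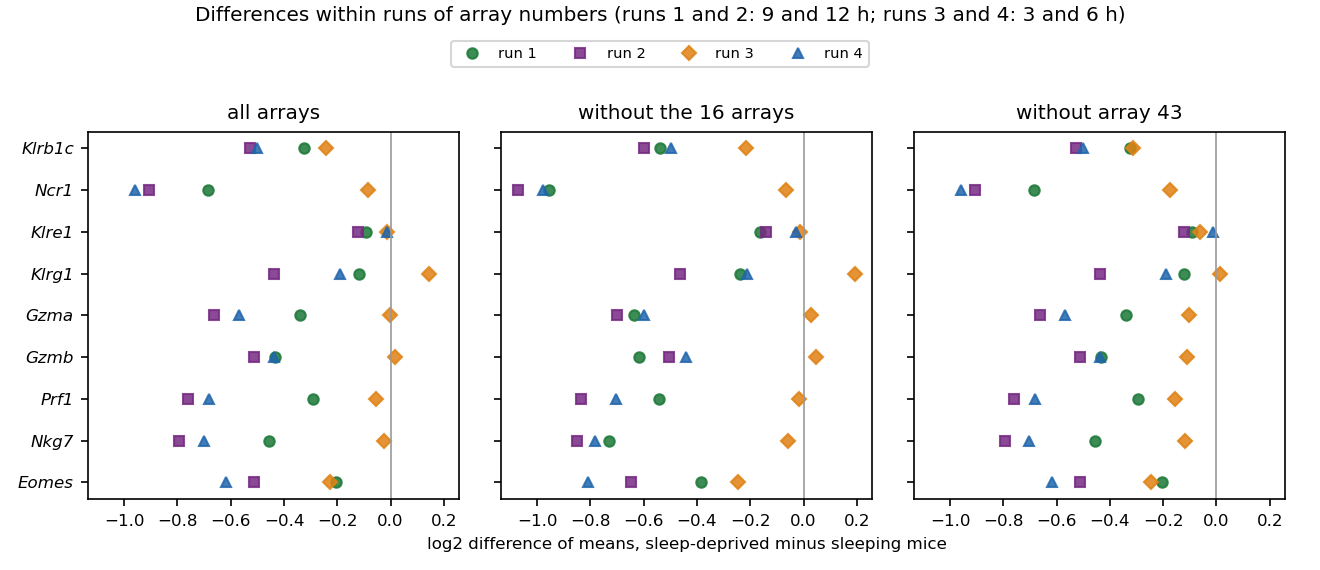
Log2 difference of the means of each member, sleep-deprived minus sleeping mice (horizontal axes), within each of the 4 runs of array numbers, for all arrays, without the 16 arrays and without array 43. With all arrays, the orange diamonds of run 3 lie near 0 for most members (median -0.03), and the blue triangles of run 4 lie lower for most (median -0.57).

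Both states were also set against the baseline mice at lights on. In sleep-deprived mice, none of the members passed against baseline at 3 h, where 0.56% of probe sets fell, or at 6 h, where 0.045% fell. No member was lower at these hours even at an unadjusted p under 0.05, as 7.3% and 3.92% of probe sets were. At 9 h Ncr1 and Prf1 fell, where 6.51% of all probe sets fell. Ncr1 ranged from 5.90 to 6.78 after 9 h of deprivation, against 6.75 to 7.31 at baseline, and fell by 0.77 (SE 0.21, limma adjusted p = 0.00427). Prf1 ranged from 5.35 to 6.38 after 9 h of deprivation, against 6.33 to 6.80 at baseline, and fell by 0.62 (SE 0.18, limma adjusted p = 0.00633). For Ncr1 only the lowest baseline mouse lay inside the range of the deprived mice. For Prf1 the baseline mice on arrays 36, 40 and 55 did so, at 6.36, 6.37 and 6.33. At 12 h none passed, where 1.81% of probe sets fell, and 5 members against 8.73% of probe sets were lower at an unadjusted p under 0.05, with Ncr1 at -0.70 and Prf1 at -0.59 (limma adjusted p = 0.0319 and 0.0308), and both passed without array 81, where 2.31% of probe sets fell, and without the 16 arrays, where 3.36% fell. All baseline mice are in run 3 and all 9 h and 12 h mice in runs 1 and 2, so hours and runs cannot be told apart here. The count at 9 h was 1 without any of arrays 4, 20, 21, 23, 38, 39, 52 or 54, and 3 at most.

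In sleeping mice, none of the members passed against baseline at 3 h, 6 h, 9 h or 12 h, where 0.00844%, 0.138%, 1.39% and 2.5% of all probe sets rose. Klrb1c alone was higher at an unadjusted p under 0.05, at 3 h and at 9 h, against 4.08%, 5.72%, 12% and 10.5% of all probe sets at the 4 hours. At 3 h and 9 h all 9 members averaged above baseline, with medians of 0.19 and 0.21 over the members. Klrb1c ranged from 5.82 to 6.56 after 3 h of sleep, against 5.4 to 5.87 at baseline, a difference of 0.44 (SE 0.13, limma adjusted p = 0.208). The groups overlapped only at their edges. After 9 h of sleep Klrb1c stood 0.32 above baseline (limma adjusted p = 0.128), and 0.55 above it without the 16 arrays, where it passed (limma adjusted p = 0.00117). These comparisons share the baseline mice with those of the sleep-deprived groups.

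Over the hours, the sleep-deprived mice and the baseline mice gave downward lines in all 9 members. Ncr1 fell by 0.74 (SE 0.18, limma adjusted p = 0.0033) and Prf1 by 0.61 (SE 0.16, limma adjusted p = 0.00431) over 12 h of deprivation, where 4.14% of all probe sets fell. Gzma, Gzmb and Nkg7 had slopes of -0.44, -0.41 and -0.50 over 12 h, which did not pass. Without array 81, 4 members fell, where 4.47% of all probe sets then fell, with Nkg7 at -0.62 and Gzmb at -0.52 beside Ncr1 and Prf1, and without array 6 only 1 did. With the 4 runs as a block none of the 9 passed, nor did any of all 35556 probe sets, and all slopes were above 0, from 0.02 to 0.31, and the step between 6 h and 9 h coincides with a change of run. Over 12 h of sleep, none of the members passed, where 5.44% of all probe sets changed (22.5% at an unadjusted p under 0.05, and 0 members), and the slopes ran from -0.25 for Prf1 to 0.07 for Klre1.

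In the order of the 9 group means, a sleep-deprived group was lowest in every member, at 9 h in 7 members and at 12 h in Klre1 and Klrg1, and the sleeping mice of 3 h or 9 h were highest in every member. Ncr1 had its lowest mean after 9 h of deprivation (6.22 ± 0.25, SD) and its highest after 3 h of sleep (7.33 ± 0.45, SD), a span of 1.11. Nkg7 spanned 0.85, Prf1 0.81, Klrb1c 0.72, Gzma 0.71, Gzmb 0.63, Eomes 0.54, Klrg1 0.36 and Klre1 0.14. In no member did neighbouring groups in this order differ by more than the larger of their SDs. In 7 members, all but Klre1 and Klrg1, the spread among sleeping mice was widest at 9 h, where arrays 10 and 28 lay low, with an SD of 0.71 for Ncr1, 0.62 for Prf1 and 0.55 for Eomes, against 0.19, 0.18 and 0.16 at baseline. By the study's criteria for unequal variance, which ask for both Bartlett's test and the Brown-Forsythe test over baseline and sleeping mice, none of the 9 members passed, where 0.112% of all probe sets did. Eomes had the smallest adjusted Bartlett p (0.0165), and only Gzmb had a Brown-Forsythe p under 0.05 (0.0495, unadjusted).

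The members varied together from mouse to mouse. With each mouse taken relative to its group mean, the 36 pairs of members had Pearson's r from 0.39 to 0.89 with a median of 0.74 over 78 mice, as a description of arrays that also share their hybridization. Ncr1 and Prf1, and Gzma and Nkg7, had the highest r (0.89 each), and Klre1 and Eomes the lowest (0.39). Ncr1 and Prf1 stood highest on median over their partners (0.80 each) and dim Klre1 lowest (0.59). Outside the members, the genes most like their mean were Klri2 (r = 0.86), a lectin-like receptor subunit, Klrk1 (0.84), which encodes the activating receptor NKG2D, S1pr5 (0.84), a receptor that lets NK cells leave lymphoid organs and marrow, and Ccl5 (0.83), a chemokine stored by cytotoxic cells. They were followed by Treml4 (0.83), Tbx21 (0.82), the T-box factor T-bet, Adgre4 (0.82), Klrd1 (0.82), which encodes CD94, Ciita (0.81), the activator of MHC class II genes, and Cd300e (0.81). Treml4, Adgre4 and Cd300e, genes of monocytes and other myeloid cells, differed between the states by -0.67, -0.83 and -0.53. These r were between 0.74 and 0.83 without the 16 arrays.

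**Figure D4:**
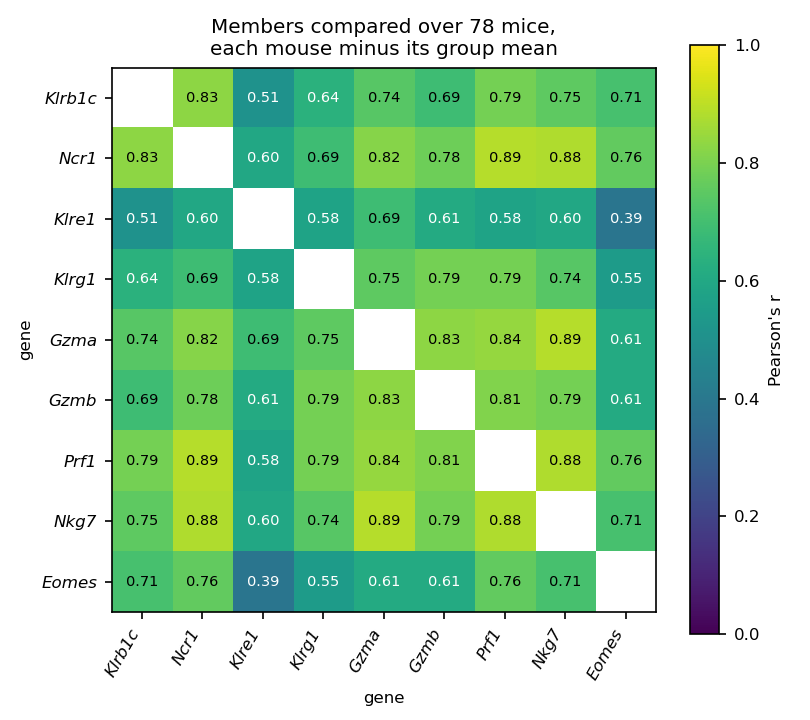
Pearson's r between each pair of the 9 members over 78 mice (colour scale and printed values), each mouse relative to the mean of its group. Klre1, the dimmest probe set, has the lowest values, and Ncr1, Prf1, Nkg7 and Gzma have values from 0.82 to 0.89 among themselves.

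Other genes of NK cells were read from lists, by the same test over all hours. The lists were chosen with earlier results of these data known, so they are not independent of the members' results. Of all 35556 probe sets, 1987 passed in this test and 1027 of these fell (2.89% of all). Of 22 other NK receptors and adaptors with a probe set of their own, 8 fell and none rose, with a median difference of -0.15. Signalling adaptors were among them. Hcst (DAP10), the adaptor of NKG2D, averaged 6.07 ± 0.17 (SD) in sleep-deprived and 6.30 ± 0.17 (SD) in sleeping mice, a fall by 0.23 (SE 0.04, limma adjusted p = 6.34e-05). Tyrobp (DAP12) and Fcer1g, adaptors that NK cells share with myeloid cells, fell by 0.20 and 0.22. Klrb1f, a relative of NK1.1, fell by 0.31, Klrc1, which encodes NKG2A, by 0.32, Klrk1 by 0.34, Klrd1 by 0.33 and Cd96, a receptor that shares its ligand with DNAM-1, by 0.42. Of the remaining 14, Klri1 had the highest difference, 0.14 (limma adjusted p = 0.0947).

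Of 15 cytokine receptors, homing receptors and chemokines, 5 fell and 1 rose, where 2.89% of all probe sets fell. Il2rb, the shared receptor chain for interleukins 2 and 15, averaged 7.17 ± 0.36 (SD) in sleep-deprived and 7.67 ± 0.36 (SD) in sleeping mice, a fall by 0.51 (SE 0.08, limma adjusted p = 1.49e-05). S1pr5 fell by 0.44, Ccl5 by 0.42, Xcl1, a chemokine that draws dendritic cells, by 0.22 and Cxcr3, a receptor for interferon-induced chemokines, by 0.18. S1pr1, which is strongly expressed by endothelium, rose by 0.14 (SE 0.03, limma adjusted p = 0.000961). Of 11 transcription factors of NK cells, 3 fell and none rose, with Runx3 at -0.30 (SE 0.06, limma adjusted p = 0.000128), Stat4, which relays interleukin 12, at -0.30 and Tbx21 at -0.26. Nfil3, needed for NK cell development and also a gene of the clock's output, averaged 6.83 ± 0.55 (SD) in sleep-deprived and 6.38 ± 0.56 (SD) in sleeping mice, a difference of 0.45 that did not pass (limma adjusted p = 0.0146).

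Of 16 further genes of killing and granule release, 2 fell and 1 rose, where 2.89% of all probe sets fell. The median difference of these genes was -0.02. Ctsw, a cathepsin of cytotoxic lymphocytes, fell by 0.52 (SE 0.10, limma adjusted p = 8.64e-05), and Stxbp2, which acts in granule fusion, by 0.12. Rab27a, which docks granules and works in many secretory cells, rose by 0.16 (SE 0.03, limma adjusted p = 0.000586). The granzymes Gzmc, Gzmk and Gzmm differed by -0.06, 0.01 and 0.01, and Ifng by -0.08, none of which passed. Of 13 ligands of NK receptors and cytokines that sustain NK cells, 2 fell and none rose, namely Cd48, the ligand of 2B4, by 0.36 (SE 0.06, limma adjusted p = 1.28e-05) and Il12a, a subunit of interleukin 12, by 0.25. Il15, on which NK cells depend, differed by -0.13 (limma adjusted p = 0.0301), and the inhibitory ligand genes H2-T23 and Clec2d by -0.04 and -0.06.

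Markers of several other blood leukocytes were lower in the same comparison. Of 12 B cell markers 11 fell, against 2.89% of all probe sets, and their median difference of -0.64 was larger than that of the members. Of 6 monocyte markers 4 fell (median -0.30), and of 15 T cell markers 2 fell, Cd3e and Cd3g, though all 15 differences were below 0 (median -0.28). The mean level of the B cell list per mouse, relative to all mice, ran from -1.02 to 0.58 in sleep-deprived and from -1.13 to 1.12 in sleeping mice. The T cell list ran from -0.55 to 2.92 in sleep-deprived and from -0.50 to 0.91 in sleeping mice, and the monocyte list from -0.70 to 0.42 in sleep-deprived and from -0.64 to 0.79 in sleeping mice. The members themselves ran from -0.68 to 0.86 in sleep-deprived and from -0.56 to 0.84 in sleeping mice. Over 78 mice relative to their group means, the members' mean followed the other NK receptors (r = 0.88), monocytes (0.76), B cells (0.64) and platelets (0.48) and ran against lung macrophages (-0.47), with 0.22 for T cells, or 0.40 without array 27, a mouse with a T cell level of 2.92. The resident lung macrophage list (6 markers), the lung epithelium list (7 markers) and the platelet list (4 markers) had no gene that passed, with medians of 0.08, -0.02 and -0.13. Of 6 endothelial markers 1 rose (median 0.04). In the other lists, 1 of 9 neutrophil, 2 of 9 thymus and lymph node, 1 of 8 mast cell and basophil, 1 of 4 type 2 innate lymphoid and 1 of 5 plasmacytoid dendritic cell markers fell, none of 4 red cell or 10 liver genes did, and none of these rose. Liver transcripts, which mark some lungs, had an r of 0.07 with the members. A part of these other cells in the members' differences was not tested.

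**Figure D5:**
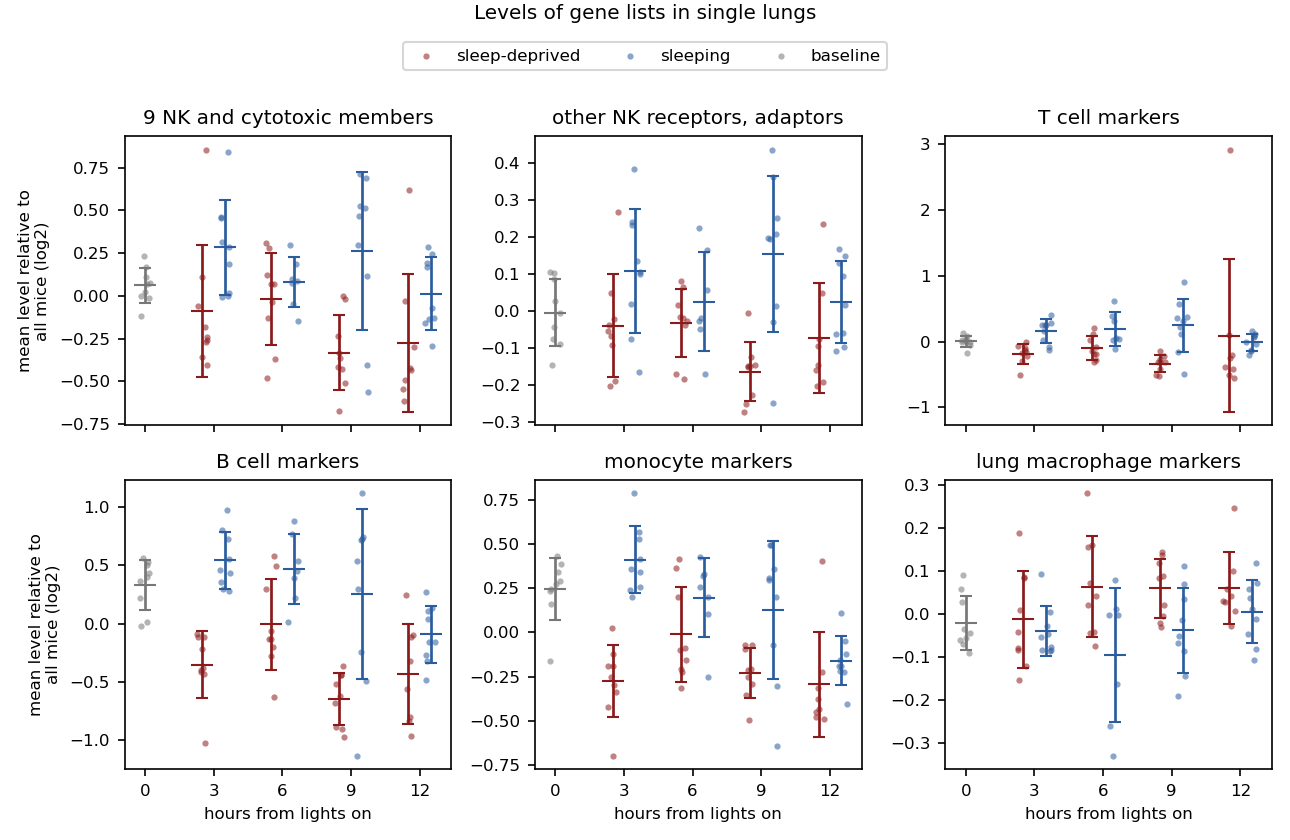
Mean log2 level of each gene list in a mouse, with the mean over all mice set to 0 (vertical axes), by time since lights on in hours (horizontal axes), dark red for sleep-deprived, blue for sleeping and grey for baseline mice, with group means and SDs. The 9 members, the other NK receptors, T cells, B cells and monocytes average lower in sleep-deprived mice at 3 h and 9 h, and the lung macrophage list does not. The T cell point at 2.92 at 12 h is array 27.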

How the data were processed

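Lung RNA of 78 mice was compared on single-channel arrays. The authors read the arrays into R/oligo and normalized them by robust multi-array averaging (RMA) over all lung arrays, and the deposited values are log2 intensities from which the decimal point is missing. It was restored behind the leading digit, or behind the next one when a value starts with 1, and the restored data ran from 2.27 to 13.85, with medians per array of 6.45 to 6.78. Of the probe sets, 21218 carry a single gene symbol in the annotation, 1881 carry more than 1 and 12457 carry no symbol. A gene took its single-symbol probe set with the highest mean. The number of mice, not a read depth, sets the precision of array values.

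The states were set against each other over all hours in limma 3.58.1 (R 4.3.3), with no time term, after the design in the study's methods and with moderated tests in place of its permuted F statistic. Differences at each hour, against baseline and their change over the hours came from 1 fit with 9 groups, and slopes from lines over hours, given per 12 h. Adjusted p-values are Benjamini-Hochberg values over all 35556 probe sets with a threshold of 0.01. The rule was to name the 9 members, up to 4 genes of each NK list with the smallest adjusted p and the 10 genes most like the members, and other list genes were chosen after their values were seen. The members and lists were chosen with earlier results of these data known. Each mouse is a separate animal on its own array. Alternatives were leaving out 16 arrays, array 27 or each mouse in turn, blocks of 4 or 5 runs of array numbers, a filter at a mean of 6, trended and robust variances, array weights, a liver covariate, time as a factor, the mean of all probe sets of a gene and other slope tests. Leaving out array 43, and array 81 alone, was chosen after seeing the data. The procedure was tested on simulated data. Software also included numpy 2.4.6, pandas 2.3.3 and matplotlib 3.10.9 under Python 3.11.15.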

Additional observations from a re-analysis of the deposited data

Results flagged for a closer look

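Mice that stood apart from the rest of their group by Dixon's criterion were found in 11 of 81 combinations of member and group. Chance flags about 1 in 20 groups, but the members varied together from mouse to mouse. The combinations are therefore not independent, and an excess over chance cannot be read from this count. The sleep-deprived mouse on array 43 at 3 h was outlying in 5 members, with 6.29 for Klrb1c, 8.98 for Gzma, 7.94 for Gzmb, 7.39 for Prf1 and 6.70 for Klrg1, always above the others. The 12 h sleep-deprived mouse on array 81 was high in 3 members, with 8.86 for Gzma, 7.42 for Gzmb and 5.99 for Eomes. Single values were outlying for Ncr1 in a 9 h sleep-deprived mouse on array 22 (6.78), for Eomes in a 3 h sleeping mouse on array 75 (6.40) and for Klre1 in a baseline mouse on array 38 (3.72).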

How the results depend on the processing

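Over all hours the 5 members that fell also passed under every alternative in which they were fitted and with any 1 mouse left out. The count ran from 5 to 7, except 4 with the filter, which leaves Klrb1c and Eomes out. Over the alternatives, from 2.69% (without array 43) to 5.03% (array weights) of all probe sets fell. Shares in parentheses are those of all probe sets that fell, or rose for 9 h of sleep, in the same setting. At 3 h the count of 1 became 2 without the 16 arrays (2.76%), 3 with array weights (3.99%), 0 with the filter, which leaves Klrb1c out (3.83%), and 2 without array 43 (1.88%). At 6 h the count of 0 became 1 without the 16 arrays (0.858%). At 9 h the count of 3 became 7 without the 16 arrays (2.64%) or with array weights (3.17%) and 5 without array 43 (1.39%) or array 81 (1.51%). Against baseline, the count of 0 for 12 h of deprivation became 2 without the 16 arrays (3.36%) or without array 81 (2.31%) and 4 with array weights (5.38%), and that for 9 h of sleep became 1 without the 16 arrays (2.05%). The count of 2 for the slope of deprivation became 0 with the 4 runs as a block (0 of all 35556 probe sets), 5 with array weights (7.03%) and 4 without array 81 (4.47%). With each mouse left out in turn, counts ran from 1 to 2 at 3 h, from 1 to 7 at 9 h, from 1 to 3 for 9 h and 0 to 2 for 12 h of deprivation against baseline, and from 1 to 4 for the slope of deprivation, and were 0 at 6 h, at 12 h and in the others. For single mice left out, shares of all probe sets are given here only for arrays 43 and 81. Signs turned only where the difference was small or the run was fitted. Without the 16 arrays these were Gzmb (-0.075) and Klrg1 (-0.044) at 6 h, and the slopes of sleep of Gzmb (0.019), Nkg7 (0.016) and Eomes (0.039). With the 4 runs as a block they were the slopes of sleep of Klrb1c (-0.10), Klre1 (-0.012), Klrg1 (-0.14) and Eomes (0.12), and the slopes of deprivation of Klrb1c (0.28), Ncr1 (0.16), Gzma (0.093), Gzmb (0.10), Prf1 (0.033), Nkg7 (0.31), Klre1 (0.019), Klrg1 (0.21) and Eomes (0.027). With 5 runs they were Klrg1 at 3 h (-0.10), and Gzmb (-0.062) and Klrg1 (-0.083) at 6 h, with array weights Gzmb (-0.005) and Klre1 (0.006) at 6 h and Eomes (0.008) in the slope of sleep, with the liver covariate Klre1 (0.014) and Klrg1 (-0.034) at 3 h, with a common intercept the slopes of sleep of Gzmb (0.004), Nkg7 (0.013), Klrg1 (-0.012) and Eomes (0.087), and without array 43 Klrg1 at 3 h (-0.15). The cause of these changes was not tested. At 3 h and 6 h the split into 5 runs is not independent of the states, and with 4 runs as a block the 9 h and 12 h groups could not be compared with baseline. No paired analysis was possible because each mouse has an array number of its own. The dim signal of Klre1 limits what can be seen of it.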
